A study of Mus musculus with 12 samples.

Results

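The mouse genome holds many copies of ribosomal protein mRNAs that lack the function of the parent gene, and 208 of them could be followed in oligodendrocyte precursor cells (OPCs) on microarrays. They were the transcript clusters (the units into which the array's probes are combined) whose only annotated symbol begins with Rpl or Rps and contains -ps, out of 65535 clusters in the deposited table. Each symbol had 1 such cluster, and 22 further clusters that name a ribosomal protein pseudogene together with other genes were left out. The 208 pseudogenes derive, by name, from 51 parent genes.

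Primary OPCs of C57Bl/6 mice were sorted from the brains of pups at postnatal day 2 with anti-CD140a microbeads, plated at 300000 cells per well, grown for 48 h in medium with PDGFAA and bFGF, and kept for 24 h in differentiation medium with T3. About 4 h after that switch they received 50 μl of medium alone (CTRL) or of medium with extracellular vesicles (EVs) of primary microglia, at a ratio of 2 donor microglia for each OPC. The microglia had been stimulated with pro-inflammatory cytokines (i-EVs), with interleukin-4 (IL4-EVs), or grown together with mesenchymal stem cells while those cytokines were present (MSC-EVs). Total RNA of 3 samples per group was measured on Clariom D arrays (12 in all, 1 for each sample), and the comparisons ask how each type of EV changes OPC transcripts relative to medium alone and to the other EVs.

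Most ribosomal protein pseudogenes are processed pseudogenes, which arise when a spliced mRNA is copied into DNA by the enzymes of LINE elements and inserted elsewhere in the genome, usually without a promoter. Ribosomal proteins, which build the large (Rpl) and small (Rps) subunits of the ribosome, have left more of these copies than most gene families because their mRNAs are short and abundant. Young copies differ little from the parent mRNA, so a probe designed for one may also bind RNA of the parent or of a sister copy. Probe sequences were not analysed here, and for each value below it cannot be told apart whether the pseudogene's own RNA or RNA of a similar sequence gave the signal.

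By symbol, 207 of the 208 were found among the RefSeq genes of mouse build GRCm38.p6. RefSeq classed 199 as pseudogenes and 6 as transcribed pseudogenes (Rpl14-ps1, Rpl17-ps10, Rps15a-ps4, Rps15a-ps6, Rps19-ps3 and Rps6-ps4), while Rpl31-ps12 and Rpl34-ps1 were classed as protein-coding. Their gene models ran from 281 to 41903 bases with a median of 515. By the names of their clusters 29 lay on chromosome X and 4 to 17 on each of chromosomes 1 to 19. In 3 sets of members the values were identical on all 12 arrays, namely Rps19-ps1 with Rps19-ps2, Rpl35a-ps3 with Rpl35a-ps4 and Rpl35a-ps6, and Rps12-ps6 with Rps12-ps17 and Rps12-ps18, so that the 208 members held 203 distinct sets of values.

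Ribosomal protein mRNAs carry a 5′ terminal oligopyrimidine (TOP) tract, a C at the first transcribed base followed by a run of C and T, through which the kinase mTOR controls their translation. Some parents have at least 4 members and a RefSeq promoter entry that shows this tract. Start sites from among these parents are printed here, and the list need not be complete. They stand beside Rpl31-ps12, the only member with a promoter entry, because a start of its own is what a processed copy usually lacks. Each line gives 15 bases before and 15 bases from the annotated start in GRCm38.p6, 5′ to 3′ on the gene's strand, with the tract in capitals.
Rpl35a: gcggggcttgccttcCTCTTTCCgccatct
Rps10: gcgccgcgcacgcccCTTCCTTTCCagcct
Rps15a: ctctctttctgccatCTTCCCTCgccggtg
Rps6: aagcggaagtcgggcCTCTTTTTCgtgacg
Rpl31-ps12: catggaaaacaacacaaaaatcaacaacat
These windows lie at chr16:33056467-33056496 on the plus strand (Rpl35a), and on the minus strand at chr17:27635230-27635259 (Rps10), chr7:118116133-118116162 (Rps15a), chr4:86857353-86857382 (Rps6) and chr16:16820182-16820211 (Rpl31-ps12). A start of C and at least 4 further pyrimidines, read on the gene's strand only, stood at the annotated first base in 10 of the 40 parents with an entry (25%) and in 3.01% of all 27025 genes of the table. It was not at the annotated start of Rpl31-ps12.

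The median change of all clusters lay between -0.03 and 0.02 log2 units in the 6 comparisons between groups. Summed signals of 5 oligodendrocyte lineage markers ran from 19.54 to 19.82 log2 units on all 12 arrays, a sum held up by Olig2 at a mean of 19.09. Of the 5 only Cspg4, a proteoglycan of OPCs, was changed, higher with MSC-EVs by 0.79 (limma adjusted p = 0.0112). MSC-EVs replicate 3 stood apart in these markers, with Cspg4 at 10.57 against 9.19 to 9.84 on the other arrays, Gpr17 at 17.26 against 17.85 to 18.21 and Sox10 at 13.95 against 14.61 to 15.02. Without that array 158 members fell with MSC-EVs and 0 were lower with MSC-EVs than with i-EVs, in place of the 174 and 16 given below. The 7 microglia markers summed to 6.03 to 6.27, and none of the 7 was changed. Of 4 astrocyte markers 1 was changed in at least 1 comparison, Slc1a3 with IL4-EVs (-0.29, limma adjusted p = 0.0189). Their sum, held up by Slc1a3 at a mean of 6.39, lay at 7.24 to 7.25 in CTRL and 7.06 to 7.12 with EVs. Of 5 neuron markers 1 was changed, Snap25, lower with IL4-EVs (-0.56, limma adjusted p = 0.00748) and MSC-EVs (-0.44, 0.0135). No other marker of the 5 passed, and with MSC-EVs Tubb3 changed by -0.27 (0.149) and Syt1 by 0.24 (0.214). The sum of the 5, held up by Snap25 and Tubb3 at means of 8.11 and 7.58, spanned 9.18 to 9.37 in CTRL. With MSC-EVs the sum was 8.88 to 9.03, with IL4-EVs 8.81 to 8.98 and with i-EVs 8.98 to 9.22. The part of these cells in the changes below was not tested, and in RNA of a whole culture fewer cells of a type and less RNA per cell cannot be told apart.

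On the arrays of EV-treated OPCs nearly all the pseudogenes gave a lower signal than in CTRL. The mean of 3 arrays was below that of CTRL for 207 of 208 with MSC-EVs (52.4% of all clusters), 206 with IL4-EVs (49.6%) and 207 with i-EVs (43.5%). The only member whose mean was higher with every EV was Rpl9-ps5, a copy of a large subunit protein gene, by 0.04 (MSC-EVs), 0.13 (IL4-EVs) and 0.08 log2 units (i-EVs) at a dim signal of 3.36, and none of these differences passed the test. The median change of the 208 was -0.43 log2 units with i-EVs (1.35-fold lower), -0.50 with IL4-EVs (1.41-fold) and -0.75 with MSC-EVs (1.68-fold), beside 0.02, 0.00 and -0.01 for all clusters. The standard error of a member's change was 0.13 at the median and ran from 0.06 to 0.36.

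A member counted as changed at adjusted p under 0.05 in limma, fitted to all clusters. With MSC-EVs 174 of 208 members fell (83.7%), beside 6.75% of all clusters. With IL4-EVs 105 fell (50.5%), beside 4.13% of all clusters. With i-EVs 16 fell (7.69%), beside 0.378% of all clusters. No member rose in any of the 3 by limma, whereas 5.86%, 1.61% and 0.0977% of all clusters rose with MSC-EVs, IL4-EVs and i-EVs. At an unadjusted p under 0.05 no member was higher either, beside 11.2%, 6.58% and 5.81% of all clusters in the same order. The fall was at least 1.5-fold for 138 members with MSC-EVs (2.62% of all clusters), 74 with IL4-EVs (1.26%) and 10 with i-EVs (0.122%). The 3 comparisons share the CTRL arrays.

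The count for i-EVs rested on few arrays. It was 0 without any one CTRL or IL4-EVs array and without i-EVs replicate 2 or 3, it was 5, 9 and 59 without MSC-EVs replicate 1, 2 and 3, and it was 102 without i-EVs replicate 1. At an unadjusted p under 0.05, 197 members were lower with MSC-EVs (12% of all clusters), 161 with IL4-EVs (10%) and 149 with i-EVs (7.53%). The count for IL4-EVs was 58 without CTRL replicate 1, 57 without IL4-EVs replicate 2 and 64 without IL4-EVs replicate 3, and that for MSC-EVs stayed between 138 and 180 without any single array.

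Array by array, the median difference of the 208 members from the CTRL mean was 0.05, -0.06 and 0.00 on the 3 CTRL arrays. On the i-EVs arrays it was -0.19, -0.61 and -0.50, on the IL4-EVs arrays -0.39, -0.58 and -0.53, and on the MSC-EVs arrays -0.62, -0.87 and -0.77. The array i-EVs replicate 2 stood apart in scale, with a highest value of 19.75 against 19.93 on the other 11 arrays and a median of all clusters of 3.65 against 3.53 to 3.58, and without it the median change of the members with i-EVs was -0.35 and none passed the threshold. Replicate 1 of i-EVs stood nearest to CTRL, with 134 members below all 3 CTRL arrays, against 196 and 199 on the other i-EVs arrays, 174 to 200 on IL4-EVs arrays and 201 to 203 on MSC-EVs arrays. The share of all clusters below CTRL on single arrays was not computed, so these counts have no background beside them. The 3 EV arrays lay wholly below the 3 CTRL arrays for 128 members with i-EVs (9.98% of all clusters), 172 with IL4-EVs (14.6%) and 197 with MSC-EVs (14.5%). From low to high the group means ran MSC-EVs, IL4-EVs, i-EVs, CTRL in 145 members, and IL4-EVs changed places with i-EVs in 52.

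**Figure D1:**
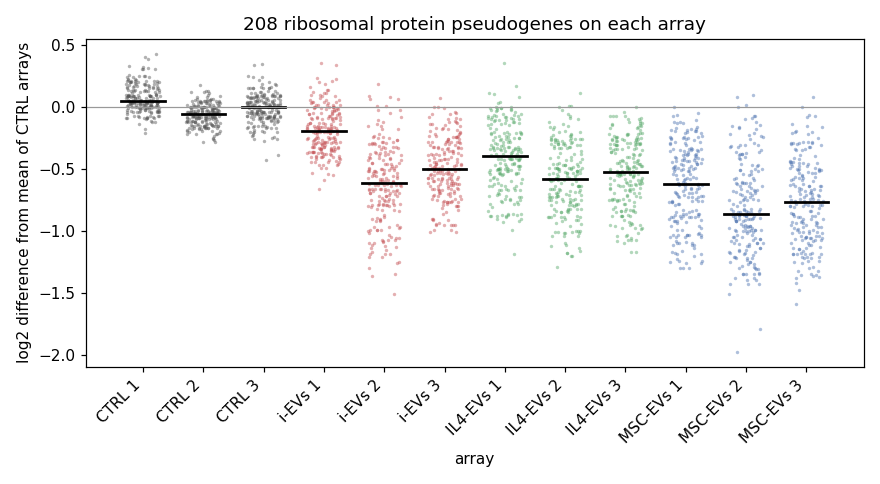
Difference of each of the 208 ribosomal protein pseudogenes from its own mean over the CTRL arrays (log2 units, vertical axis) on each of the 12 arrays (horizontal axis). Points are pseudogenes and black lines their medians, which lie between -0.06 and 0.05 on CTRL arrays, at -0.19 on i-EVs 1 and between -0.87 and -0.39 on the other EV arrays.

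The EVs were also compared with each other. MSC-EVs against i-EVs gave a median of -0.29 for the members, and 16 fell further with MSC-EVs (limma, adjusted p under 0.05), beside 0.385% of all clusters, 6 of them by at least 1.5-fold (0.0885%). The 6 were Rps10-ps2, Rpl29-ps1, Rps15a-ps5, Rpl39-ps, Rpl36-ps8 and Rpl36-ps2. No member differed between IL4-EVs and i-EVs (median -0.07, 0% of all clusters lower) or between MSC-EVs and IL4-EVs (median -0.22, 0%) at adjusted p under 0.05 in limma. At an unadjusted p under 0.05, 106 were lower with MSC-EVs than with i-EVs (8.29% of all clusters), 63 lower with MSC-EVs than with IL4-EVs (3.45%), and 20 lower with IL4-EVs than with i-EVs (4.81%). The 16 became 0 to 9 when 1 array was left out.

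The small subunit was led by Rps12, whose protein lies in the head of the subunit and in Drosophila serves as a sensor in cell competition. All 16 of its copies fell with IL4-EVs (-0.95 to -0.63) and with MSC-EVs (-1.30 to -0.82, median -1.16), and with i-EVs their changes were -0.90 to -0.43 with none past the threshold. Rps12-ps13 gave 16.44, 16.27 and 16.35 log2 units in CTRL, 16.06, 15.43 and 15.64 with i-EVs, 15.70, 15.55 and 15.60 with IL4-EVs, and 15.39, 15.06 and 15.14 with MSC-EVs. Every EV array lay below every CTRL array, and the MSC-EVs arrays lay below all others. The change was -1.16 ± 0.14 (SE, limma adjusted p = 0.000579) with MSC-EVs, -0.74 ± 0.14 (0.0103) with IL4-EVs and -0.64 ± 0.14 (0.0631) with i-EVs.

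Of the 16 Rps12 copies 11 lie on chromosome X. RefSeq places 13 Rps12 pseudogenes among 20 consecutive genes there, and 9 of the 13 were members, including the 3 with identical values. These 9 changed by -1.29 to -1.11 with MSC-EVs, by -0.84 to -0.74 with IL4-EVs and by -0.84 to -0.59 with i-EVs. The largest change with MSC-EVs belonged to Rps12-ps1, also on chromosome X (-1.30 ± 0.15, adjusted p = 0.000529), and the smallest to Rps12-ps24 on chromosome 8 (-0.82 ± 0.10, 0.000572).

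Rps19, a small subunit gene mutated in Diamond-Blackfan anaemia in humans, had 13 copies, of which 12 fell with IL4-EVs, all 13 with MSC-EVs and none past the threshold with i-EVs. The pair with identical values, Rps19-ps1 and Rps19-ps2, gave 13.46, 13.02 and 13.16 in CTRL, 12.74, 12 and 12.31 with i-EVs, 12.33, 12.01 and 12.04 with IL4-EVs, and 11.91, 11.86 and 11.97 with MSC-EVs. CTRL lay above every EV array, while i-EVs replicate 2 lay between the MSC-EVs and the IL4-EVs arrays. With IL4-EVs they had the largest fall of all members (-1.09 ± 0.17, limma adjusted p = 0.0039), and with MSC-EVs they changed by -1.30 ± 0.17 (0.000806). Rps19-ps13, with a mean CTRL signal of 4.75, changed least of the family with MSC-EVs (-0.34 ± 0.10, 0.0364).

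Rps10, another small subunit protein, had 4 copies that parted in their response to i-EVs. Rps10-ps1 gave 13, 12.95 and 13.04 in CTRL, 12.64, 12.16 and 12.33 with i-EVs, 12.01, 11.99 and 12.02 with IL4-EVs, and 11.74, 11.98 and 11.74 with MSC-EVs. Rps10-ps2 gave 9.60, 9.76 and 9.55 in CTRL, 9.56, 9.13 and 9.59 with i-EVs, 9.11, 9.19 and 9.09 with IL4-EVs, and 8.74, 8.82 and 8.63 with MSC-EVs. The i-EVs arrays of the first copy lay wholly below CTRL, and those of Rps10-ps2 overlapped it, with changes of -0.62 ± 0.11 (limma adjusted p = 0.0424) and -0.21 ± 0.12 (0.48). With MSC-EVs they fell by 1.18 (0.000268) and 0.91 (0.000713), and both were lower with MSC-EVs than with i-EVs, by -0.56 (0.0368) and -0.70 (0.0258). The dim Rps10-ps4 (CTRL mean 3.77) changed by -0.36 with MSC-EVs and did not pass the threshold (0.0506).

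Among copies of Rps15a, 7 of 8 fell with MSC-EVs, 4 with IL4-EVs and 2 with i-EVs. Rps15a-ps3 gave 14.81, 14.79 and 15.12 in CTRL, 14.46, 13.93 and 13.99 with i-EVs, 14.03, 13.94 and 13.95 with IL4-EVs, and 13.67, 13.52 and 13.53 with MSC-EVs. All MSC-EVs arrays were the lowest, and the changes were -1.33 (limma adjusted p = 0.000335) with MSC-EVs, -0.93 (0.0026) with IL4-EVs and -0.78 (0.039) with i-EVs. Rps15a-ps5 gave 7.08, 7.02 and 6.86 with i-EVs and 6.66, 6.29 and 6.11 with MSC-EVs, a difference of -0.63 ± 0.14 (0.0494) between the EVs. Rps15a-ps8, with a mean of 3.22, changed by -0.23 with MSC-EVs (0.152).

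Rps13 had 4 copies, and Rps13-ps1 fell with all 3 EVs, by 1.09 with MSC-EVs (limma adjusted p = 0.000468), 0.95 with IL4-EVs (0.00198) and 0.66 with i-EVs (0.0462). Its CTRL arrays gave 13.77, 13.74 and 13.90 and its MSC-EVs arrays 12.71, 12.69 and 12.75, with i-EVs at 13.45, 12.86 and 13.12 between them. Copies of Rps6, the ribosomal protein that S6 kinases phosphorylate downstream of mTOR, ran from -1.14 (Rps6-ps2, 0.00374) to -0.39 (Rps6-ps4, 0.0216) with MSC-EVs, where all 4 fell, and 1 of the 4 fell with IL4-EVs. Of 8 copies of Rpsa, which is also known as the laminin receptor precursor, 7 fell with MSC-EVs, from Rpsa-ps11 (-1.09, 0.00505) down to a change of -0.20 (0.297) in Rpsa-ps3 at a mean of 3.37.

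The large subunit held the largest family, the 22 copies of Rpl31, whose protein sits near the exit tunnel of the nascent chain. Of these 21 fell with MSC-EVs and 11 with IL4-EVs, and none passed the threshold with i-EVs. Their median changes were -0.73, -0.48 and -0.47 with MSC-EVs, IL4-EVs and i-EVs. Rpl31-ps11 gave 18.20, 18.26 and 18.38 in CTRL, 18.06, 17.62 and 17.80 with i-EVs, 17.80, 17.70 and 17.64 with IL4-EVs, and 17.55, 17.64 and 17.62 with MSC-EVs, with no overlap between CTRL and any EV. Among the 22, the change with MSC-EVs was largest in Rpl31-ps18 (-0.98 ± 0.19, limma adjusted p = 0.00583) and smallest in Rpl31-ps21 (-0.37 ± 0.09, 0.0191), which has a mean CTRL signal of 3.30. Rpl31-ps12, classed as protein-coding and shown by its start site above, changed by -0.71 (0.00407) with MSC-EVs, -0.48 (0.0527) with IL4-EVs and -0.40 (0.177) with i-EVs.

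Of the 13 copies of Rpl21, another large subunit protein, none passed the threshold with i-EVs or IL4-EVs (changes of -0.58 to -0.11 and -0.36 to -0.14), and 9 fell with MSC-EVs (median -0.47). Rpl21-ps9 gave 11.91, 11.73 and 11.51 in CTRL, 11.56, 10.88 and 10.96 with i-EVs, 11.51, 11.33 and 11.38 with IL4-EVs, and 11.19, 10.79 and 10.92 with MSC-EVs. Its i-EVs arrays overlapped CTRL through replicate 1, and its change of -0.75 ± 0.17 (limma adjusted p = 0.0129) with MSC-EVs was the largest of the family. Rpl21-ps8 at 18.94 changed by -0.17 (0.256), the smallest. No Rpl21 copy differed between MSC-EVs and either other EV at adjusted p under 0.05 in limma, so the unlike counts are not shown to be a difference between EVs.

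All 6 copies of Rpl35a, a large subunit gene also mutated in Diamond-Blackfan anaemia, fell with IL4-EVs (-1.05 to -0.60) and with MSC-EVs (-1.13 to -0.73). Rpl35a-ps5 had the largest fall of any called member with i-EVs, with 11.23, 11.20 and 11.37 in CTRL, 10.68, 10.27 and 10.26 with i-EVs, 10.34, 10.09 and 10.23 with IL4-EVs, and 10.24, 10.05 and 10.12 with MSC-EVs. The changes were -1.13 ± 0.11 (MSC-EVs, limma adjusted p = 0.000342), -1.05 ± 0.11 (IL4-EVs, 0.0013) and -0.87 ± 0.11 (i-EVs, 0.034), and the IL4-EVs arrays overlapped those of both other EVs, while each i-EVs array lay above each MSC-EVs array. Within the family the MSC-EVs change was largest in Rpl35a-ps7 (-1.13, 0.00093) and smallest in Rpl35a-ps2 (-0.73, 0.00449).

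Of 8 copies of Rpl36, 4 fell with i-EVs, the most of any family, 5 with IL4-EVs and 6 with MSC-EVs. Rpl36-ps10 on chromosome X gave 13.19, 13.23 and 13.09 in CTRL, 12.68, 12.03 and 12.38 with i-EVs, 12.43, 12.06 and 12.22 with IL4-EVs, and 11.92, 11.77 and 11.96 with MSC-EVs. Its changes were -1.29 ± 0.14 (MSC-EVs, limma adjusted p = 0.000468), -0.93 ± 0.14 (IL4-EVs, 0.00377) and -0.81 ± 0.14 (i-EVs, 0.0427), while Rpl36-ps1, dim at 3.74, changed by -0.19, -0.15 and -0.05 and passed no threshold. Rpl22-ps1, the single copy of Rpl22 (a large subunit protein that also binds small RNAs of the Epstein-Barr virus), changed by -0.85, -0.70 and -0.72 with the same EVs (0.000468, 0.0022 and 0.034).

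Rpl19-ps12 had the lowest change of all 208 members with MSC-EVs. It gave 14.34, 13.73 and 13.95 in CTRL, 13.35, 12.65 and 13.06 with i-EVs, 13.24, 13.01 and 13.08 with IL4-EVs, and 12.85, 12.22 and 12.59 with MSC-EVs. CTRL lay above all EV arrays, and the change with MSC-EVs was -1.45 ± 0.20 (limma adjusted p = 0.00111). With i-EVs its change of -0.99 ± 0.20 was also the lowest of all members and did not pass the threshold (0.0556). Rpl27-ps2 changed by -1.32 (0.0029), -1.06 (0.0172) and -0.96 (0.0756) with MSC-EVs, IL4-EVs and i-EVs, at 12.16, 11.83 and 12.06 in CTRL and 10.91, 10.51 and 10.66 with MSC-EVs.

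With MSC-EVs the copies of Rpl9 spread the most among families of at least 4 members, from -1.34 to 0.04, while with IL4-EVs those of Rps10 did (-0.99 to -0.06). Rpl9-ps1 gave 9.83, 9.65 and 9.45 in CTRL, 9.55, 8.49 and 8.69 with i-EVs, 9.43, 8.79 and 9.16 with IL4-EVs, and 9.19, 7.66 and 8.05 with MSC-EVs. Its MSC-EVs replicate 1 lay more than 1 log2 unit above the other MSC-EVs arrays, and the change of -1.34 had the largest standard error of any member (0.36, limma adjusted p = 0.0296). Of the 7 copies of Rpl9, 4 fell with MSC-EVs and 3 with IL4-EVs. Rpl29-ps1, of a gene whose small protein binds heparin in mammals, gave 12, 11.84 and 11.94 with i-EVs and 11.40, 11.24 and 11.21 with MSC-EVs, a difference of -0.64 ± 0.14 (0.0469), and changed by -0.86 with MSC-EVs against CTRL (0.00209).

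**Figure D2:**
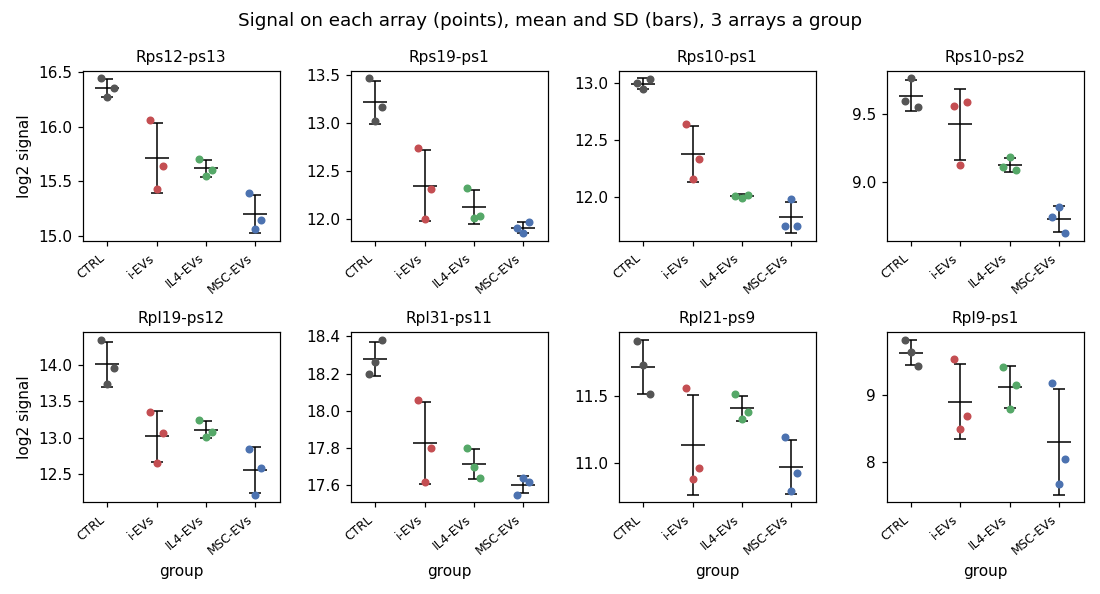
Log2 signal (vertical axes) of 8 pseudogenes on the 3 arrays of each group (points), with group means and SD (bars). The MSC-EVs arrays lie below all CTRL arrays in each of the 8, and i-EVs overlap CTRL in Rps10-ps2, Rpl21-ps9 and Rpl9-ps1.

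Copies in the other families with at least 4 members fell with MSC-EVs in all or in part. All 8 copies of Rpl30 (-0.83 in Rpl30-ps2 to -0.38 in Rpl30-ps5) fell, as did all 4 of Rpl13 and all 4 of Rpl19. Of 8 copies of Rpl7a 6 fell, led by Rpl7a-ps12 (-1.03, limma adjusted p = 0.00197), of 6 copies of Rpl23a 3 fell, led by Rpl23a-ps2 (-0.88, 0.00684), and of 5 copies of Rpl17 3 fell, led by Rpl17-ps1 (-0.71, 0.0115). Rpl10, a late-joining protein of the large subunit, had the smallest family median with MSC-EVs (-0.35), and its brightest copies were near the top of the array's range: Rpl10-ps1 gave 19.49, 19.47 and 19.39 in CTRL and 19.24, 19.36 and 19.24 with MSC-EVs (-0.17, 0.157).

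How far a copy fell went in part with its family. Among the 123 members of the 19 families with at least 4 copies with a mean signal of 6 log2 units or more, the parent's name accounted for 60.6% of the variance of the change with MSC-EVs, 81.1% with IL4-EVs and 50.9% with i-EVs. Among all 152 members of these families, the dim ones included, it accounted for 39.3%, 54.6% and 36.6%. Family labels take up 14.8% and 11.9% of the degrees of freedom in the smaller and the larger set. These percentages are a description with no test, since copies of a parent share sequence and may share probes' targets.

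**Figure D3:**
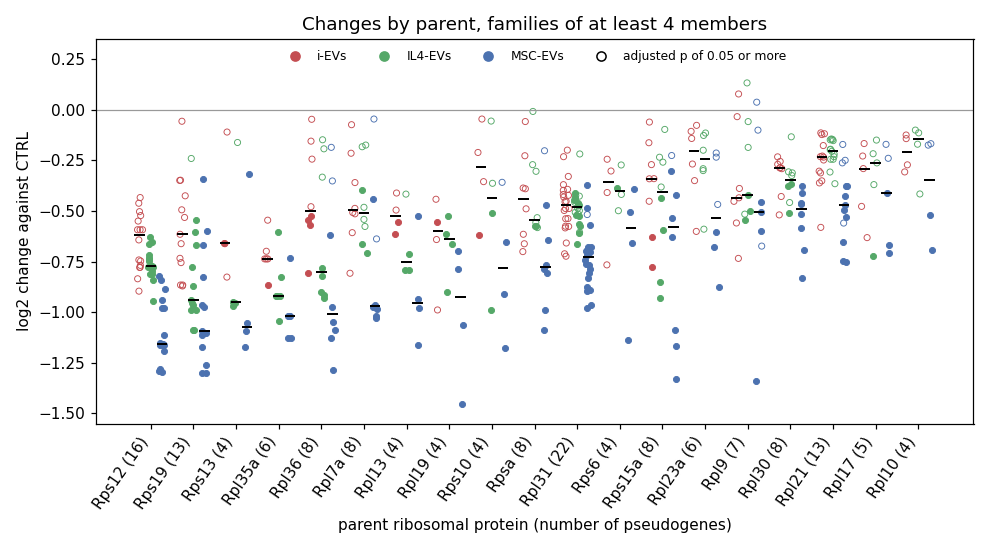
Log2 change against CTRL (vertical axis) of each pseudogene in the 19 families with at least 4 members (horizontal axis, number of members in brackets), for i-EVs (red), IL4-EVs (green) and MSC-EVs (blue). Filled points passed adjusted p under 0.05 in limma and black lines are medians. Rps12 has the lowest median with MSC-EVs (-1.16) and Rpl10 the highest (-0.35).

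The change also varied with the brightness of the cluster and was largest in the middle of the range. Of the 171 members at or above 6 log2 units on average 155 fell with MSC-EVs, 98 with IL4-EVs and 16 with i-EVs (90.6%, 57.3% and 9.36%). Of the 12890 other clusters at that level 25.4%, 17.4% and 1.65% fell. Of the 37 dimmer members 19, 7 and 0 fell with MSC-EVs, IL4-EVs and i-EVs, beside 1.87%, 0.679% and 0.0362% of the 52437 other dim clusters. The median change with MSC-EVs was -0.38 under 6 log2 units (37 members), -0.86 from 6 to 10 (35), -1.05 from 10 to 14 (43), -0.88 from 14 to 17 (65) and -0.44 from 17 upward (28). All other clusters in the same bands had medians of 0.00, -0.06, -0.16, -0.27 and -0.08, so the members were lower than the rest in each band. With i-EVs the members' medians were -0.22, -0.43, -0.62, -0.51 and -0.25 and with IL4-EVs -0.20, -0.49, -0.82, -0.61 and -0.27 over the 5 bands.

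The 34 members that did not pass the threshold with MSC-EVs lay mostly at the ends of that range. Rps23-ps, the brightest, gave 19.80 on 10 arrays, 19.62 on i-EVs replicate 2 and 19.75 on MSC-EVs replicate 1, close to the highest value on any array (19.93). In the middle of the range Rps15-ps2 gave 11.48, 11.67 and 11.49 in CTRL and 11.37, 11.48 and 11.40 with MSC-EVs (-0.13 ± 0.10, limma adjusted p = 0.545).

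**Figure D4:**
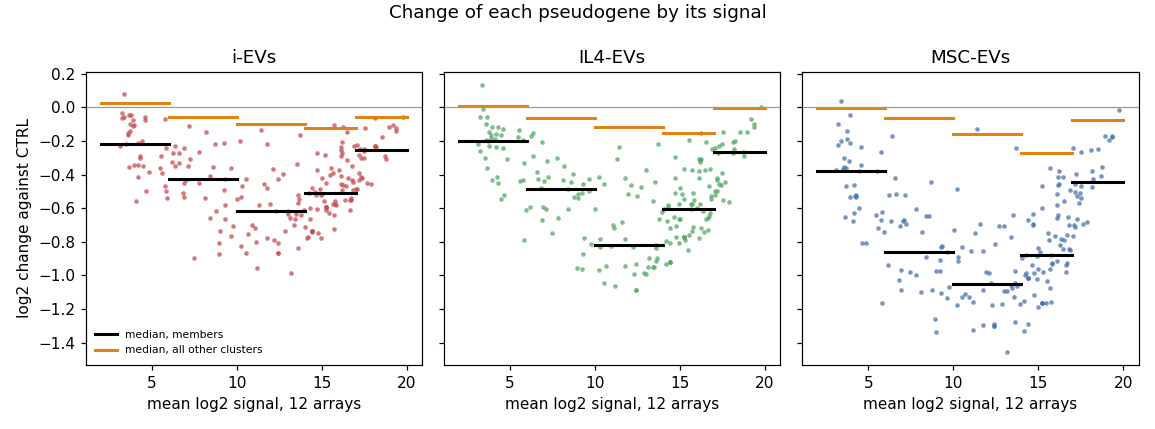
Log2 change against CTRL (vertical axis) of each pseudogene by its mean log2 signal over 12 arrays (horizontal axis), in a panel for each EV. Black lines are medians of the members and orange lines medians of all other clusters in 5 bands of signal, and in the band from 10 to 14 with MSC-EVs they lie at -1.05 and -0.16.

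Only 16 of the 51 parents had a cluster with no other symbol on the chromosome where RefSeq places the gene, and 54 of the copies belong to them. With MSC-EVs 15 of the 16 parents fell (6.75% of all clusters, 25.4% of other clusters at 6 log2 units or more), 14 did so with IL4-EVs (4.13%, 17.4%) while i-EVs lowered 2 (0.378%, 1.65%), and none rose. Parent and copy fell together in 47 of 54 pairs with MSC-EVs, 33 with IL4-EVs and 1 with i-EVs. The copy's change was lower than that of its parent in 48, 42 and 46 pairs with MSC-EVs, IL4-EVs and i-EVs. Only 20 of the 54 copies had a dimmer signal than their parent. The parent clusters of Rps10, Rps18 and Rps19 had a mean of 6.28. Pairs share parents, as Rps19 supplied 13 of them and Rpl7a and Rpsa 8 each. Whether copies fell further than their genes at an equal signal was not tested.

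With MSC-EVs Rpl27 changed by -0.59 (limma adjusted p = 0.00134) beside -1.08 and -1.32 in its 2 copies, and Rps10 by -0.57 (0.000618) beside -1.18 to -0.36 in its 4. Rpl19 changed by -0.55 (0.000491) beside -1.45 to -0.70 in its 4 copies, and Rpl22 by -0.50 (0.00474) beside -0.85 in its single copy. Rpl7a and Rpsa changed by -0.39 (0.0119) and -0.42 (0.00288), inside the range of their copies, which was -1.03 to -0.05 and -1.09 to -0.20. Rps19, at 6.28, changed by -0.24 (0.0186), less than each of its 13 copies. Rps15 did not follow the other parents, with 0.01 (0.96) beside -0.13 in its copy Rps15-ps2.

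The clusters that carry a parent's symbol on another chromosome were left out of these pairs. They were those named Rpl12 (chromosome 10), Rpl27 (18), Rpl31 (7), Rpl35 (1) and Rpl7a (9), genes that RefSeq places on chromosomes 2, 11, 1, 2 and 2. With MSC-EVs 4 of the 5 fell, by 0.52 to 0.96 log2 units, and the Rpl31 cluster, at a mean of 6.32, changed by -0.01 (limma adjusted p = 0.961). The level of the main Rpl31 and Rpl12 transcripts is therefore not given here.

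**Figure D5:**
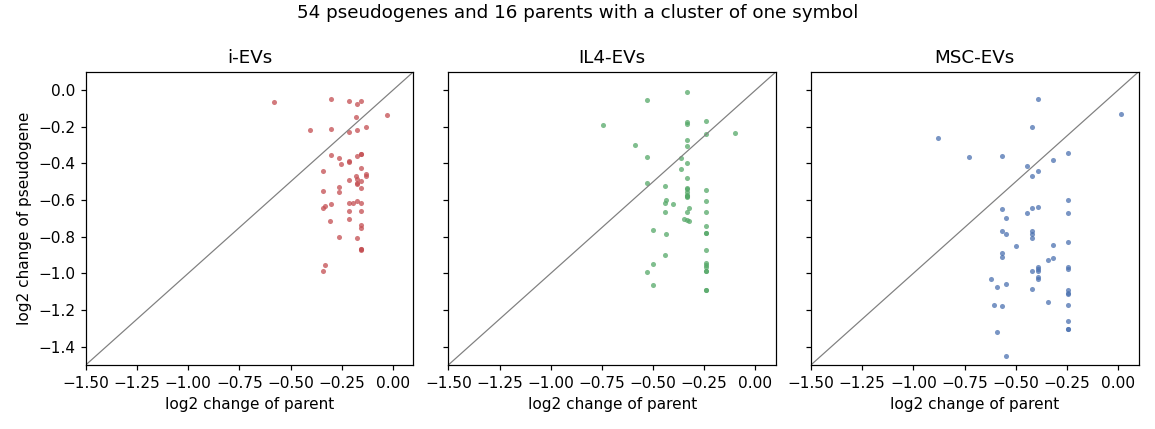
Log2 change against CTRL of 54 pseudogenes (vertical axis) and of their 16 parent genes with a cluster of their own (horizontal axis), in a panel for each EV. The line marks equal change, and of the 54 points 48 lie below it with MSC-EVs, 42 with IL4-EVs and 46 with i-EVs.

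Most ribosomal protein genes with a cluster of their own fell with MSC-EVs and IL4-EVs, and further genes of translation did so in part. The cytosolic list below includes all parents paired above except Rpl7l1, which is among the paralogs, so it is not an independent set. Of 32 cytosolic ribosomal protein genes with a cluster of their own, out of 79 on the list, 27 fell with MSC-EVs (84.4%), 25 with IL4-EVs (78.1%) and 2 with i-EVs (6.25%), with medians of -0.43, -0.36 and -0.26. Of 74 mitochondrial ribosomal protein genes 54 fell with MSC-EVs (73%), 55 with IL4-EVs (74.3%) and 4 with i-EVs (5.41%), with medians of -0.38, -0.39 and -0.23. The shares of all clusters were 6.75%, 4.13% and 0.378%, and those of other clusters at 6 log2 units or more 25.4%, 17.4% and 1.65%. Of 13 other genes of translation whose mRNAs carry a TOP tract 7, 6 and 0 fell with MSC-EVs, IL4-EVs and i-EVs, and of 7 ribosomal protein paralogs and retrogenes 3, 3 and 1. Those that did not pass include Pabpc1, which binds poly(A) tails, and the elongation factor gene Eef2, with changes of 0.13 (limma adjusted p = 0.261) and 0.11 (0.317) with MSC-EVs. No gene of these lists rose at adjusted p under 0.05 in limma, and none of the lists was tested as a set.

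Pseudogenes of other genes also fell more often than they rose. Of 646 symbols of that kind 78 fell (12.1%) and 4 rose with MSC-EVs, 45 fell (6.97%) and 1 rose with IL4-EVs, and 2 fell (0.31%) with i-EVs. Among all clusters 6.75%, 4.13% and 0.378% fell with the same EVs, and 5.86% and 1.61% rose with MSC-EVs and IL4-EVs. The medians of the 646 were -0.05, -0.04 and 0.02. Only 117 of them reached a mean of 6 log2 units, and of these 59, 43 and 2 fell with MSC-EVs, IL4-EVs and i-EVs (50.4%, 36.8% and 1.71%). Of the 117, 1 rose with MSC-EVs, 1 with IL4-EVs and 0 with i-EVs. Of all clusters at that level outside the 208 members 25.4%, 17.4% and 1.65% fell. The 117 had medians of -0.45, -0.41 and -0.33, where the ribosomal protein pseudogenes above the same level had medians of -0.84, -0.55 and -0.48.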

How the data were processed

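RNA of OPCs in 4 groups of 3 samples was measured on 12 Clariom D arrays, and groups and replicate numbers came from the sample labels. The deposited intensity values had been computed by RMA (perfect-match probes, background correction, quantile normalization and summarization to transcript clusters) and then returned to a linear scale from 3.34 to 999968. These intensity values were converted to log2 without a pseudocount. The authors' methods name Expression Console and TAC, and the processing notes of the submitters list the former. For the array annotation a genome build is not stated in any source used here. Symbols came from the platform annotation (30404 clusters with 1 symbol, 2145 with several, 32986 with none), and gene classes, lengths, order and start sites from RefSeq (GRCm38.p6).

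limma 3.58.1 in R 4.3.3 (with data.table, version 1.17.8) fitted 1 mean per group to all 65535 clusters, with 8 residual and 3.46 prior degrees of freedom, and p-values were adjusted by Benjamini-Hochberg over all clusters within each of 6 comparisons. Errors written with ± are standard errors of that fit. Figures were drawn with matplotlib. Fits were tested on simulated data with known changes. The methods call the 3 samples of a group independent and the labels do not say from which cultures they came, so the p-values reflect the spread among these samples alone, and the number of arrays limits the precision.

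Named members are, among those past adjusted p under 0.05 with groups apart, the 5 largest changes in each comparison with CTRL and up to 3 in each comparison between EVs, together with the largest and smallest MSC-EVs change of every family with at least 4 members and the parents of those named. Rpl9-ps5, Rpl36-ps2, Rpl36-ps8, Rpl39-ps, Rps23-ps, Rps15-ps2, Rpl31-ps11, Rpl31-ps12 and Rps12-ps13 were named after their values were seen. So were Cspg4, Gpr17, Sox10, Olig2, Slc1a3, Snap25, Tubb3, Syt1, Pabpc1 and Eef2. A cluster stood for a parent or listed gene only on the chromosome that RefSeq gives the gene, a rule set after values were seen. The members and the gene lists were chosen with earlier results of these data known. The alternatives were a replicate block, renewed quantile or cyclic loess normalization, a minimum mean of 6 log2 units, the 2 groups alone, other moderation, a minimum fold of 1.5 and leaving out arrays.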

Additional observations from a re-analysis of the deposited data

Results flagged for a closer look

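Some pseudogenes were called in the direct comparison of MSC-EVs with i-EVs in limma, but not under every alternative fit. In the main fit 16 of 208 members were lower with MSC-EVs at adjusted p under 0.05, beside 0.385% of all clusters. This count was 0 to 9 when any 1 of the 12 arrays was left out. It was 0 with the 2 groups fitted alone and 0 without moderation, so a difference in response is not settled.

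Among the members named by size, the difference between MSC-EVs and i-EVs was -0.70 log2 units for Rps10-ps2, -0.64 for Rpl29-ps1, -0.63 for Rps15a-ps5 and -0.56 for Rps10-ps1. In all 4 the MSC-EVs arrays lay wholly below the i-EVs arrays. The naming rule required this of Rps10-ps2, Rpl29-ps1 and Rps15a-ps5, so it is no added support. With 3 arrays per group, no group was large enough to look for single outlying arrays by a range criterion.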

How the results depend on the processing

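The falls of the members with IL4-EVs and MSC-EVs kept their direction under every alternative run, with 138 to 185 members lower with MSC-EVs and 57 to 140 with IL4-EVs, and no member rose. The count of members lower with i-EVs (16) and the count lower with MSC-EVs than with i-EVs (16) moved. They were 96 and 32 among clusters with a mean of at least 6, 0 and 0 with the 2 groups fitted alone, 4 and 5 with trended robust moderation, 0 and 0 without moderation, 10 and 6 with a fold of at least 1.5, and 0 and 1 without i-EVs replicate 2 and MSC-EVs replicate 3 together, which was chosen after seeing the data. Leaving out 1 array gave 57 to 122 members lower with IL4-EVs, 0 to 102 with i-EVs and 0 to 9 for MSC-EVs against i-EVs. The median of IL4-EVs against i-EVs (-0.07) ran from -0.152 to 0.042, above 0 only without i-EVs replicate 1. Renewed quantile normalization gave 166, 86 and 21 and cyclic loess 165, 88 and 22 members lower with MSC-EVs, IL4-EVs and i-EVs, with medians of -0.64, -0.39 and -0.34 for the former. The causes were not tested.

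With the replicate number as a block, 77 members were lower with i-EVs and 33 lower with MSC-EVs than with i-EVs. Whether the numbers pair the samples is not settled by these values. Arrays of the same number had correlations of -0.10 to 0.14 between their deviations from the group means, over 0.1 in 3 of 18 pairs. Arrays of unlike number had -0.13 to 0.11, over 0.1 in 1 of 36 pairs, and 5 of 12 arrays correlated best with their own number. In each group the members' median was highest on replicate 1 and lowest on replicate 2.

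Signals near 4 log2 units are close to background, and those near 19.9 log2 units to the highest value of the arrays, so changes of members there may be understated. In the order of its cluster names the table used here ends within chromosome 19, so members beyond that point are not measured in it. Chromosome X comes earlier in that order and holds 29 members.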

Other observations

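A further 13 clusters stood in the table under an older symbol of a gene that RefSeq now names as a ribosomal protein pseudogene, and were outside the rule that chose the members. Of these, 9 fell with MSC-EVs, 4 with IL4-EVs and 2 with i-EVs at adjusted p under 0.05 in limma, beside 6.75%, 4.13% and 0.378% of all clusters, with median changes of -0.62, -0.30 and -0.26 log2 units.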
